A study of Rattus norvegicus with 8 samples.

Results

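Neutrophil defensins and other proteins of neutrophil granules and cytosol were followed as mRNAs in plasma exosomes. They comprise 10 genes, taken by name from the 29541 genes of the expression table: Np4, RatNP-3b, Mpo, Elane, Ltf, Camp, Ngp, Lcn2, S100a8 and S100a9. The set was chosen by function and with measured values known: Np4 and RatNP-3b were selected on their higher mean in exercised than in sedentary libraries of this same table. RNA was sequenced from exosomes, small vesicles released by cells into blood, of male Sprague Dawley rats obtained at 9 to 10 weeks of age. The 4 exercised libraries (a to d) came from rats made to run on a treadmill 5 days a week for 1 month, each session being 5 min of warm-up (10 m/min) and 30 min of running (20 m/min). The 4 sedentary libraries (a to d) came from rats that were in the room without running. The labels give no genotype or agent for either group and name exercise as their difference. Blood was drawn from the left ventricle within 30 min of the last run and spun to remove cells before exosomes were isolated from the plasma. Whether a library holds plasma of 1 rat or of several is not stated, so p-values measure the spread between these libraries.

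Neutrophils are made in the bone marrow and load their granules in order as they mature. At the promyelocyte stage they transcribe the genes of the azurophil granules, which hold myeloperoxidase, serine proteases and, in rat and human, alpha-defensins, short cationic peptides that damage microbial membranes. The genes of the specific granules (lactoferrin, cathelicidin and others) are switched on later, whereas S100a8 and S100a9 mRNA is abundant up to the mature cell. Mature neutrophils in blood keep the granule proteins but little of the mRNA for them.

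Np4 encodes neutrophil antibiotic peptide NP-4 and RatNP-3b the precursor of the defensin RatNP-3, and both lie on the minus strand of chromosome 16. In RefSeq their cluster holds 14 genes named as alpha-defensins or alpha-defensin-like, of which 11 were in the table. The promoters of Np4, RatNP-3b and Defa11, a gene that lies between them, are shown because these genes differ in their reads while the promoters are near copies. Defa10, also between them, was not in the table. The sequences run from 250 bases before to 50 bases after the start site (RefSeq, GRCr8, minus strand) at chr16:77199593-77199892 for Np4, chr16:77248928-77249227 for RatNP-3b and chr16:77237992-77238291 for Defa11. Capitals mark matches, on either strand, to TTGCNNAA (the core bound by C/EBP factors), ACCACA (the Runx core) and GGAAGT (an Ets core), and TATAAA was searched as well.
Np4: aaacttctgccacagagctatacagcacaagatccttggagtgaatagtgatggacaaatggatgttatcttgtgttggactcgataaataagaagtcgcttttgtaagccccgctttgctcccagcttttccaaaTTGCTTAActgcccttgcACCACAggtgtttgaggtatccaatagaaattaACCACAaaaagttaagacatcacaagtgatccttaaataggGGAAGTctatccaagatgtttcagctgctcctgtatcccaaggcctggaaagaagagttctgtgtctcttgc
RatNP-3b: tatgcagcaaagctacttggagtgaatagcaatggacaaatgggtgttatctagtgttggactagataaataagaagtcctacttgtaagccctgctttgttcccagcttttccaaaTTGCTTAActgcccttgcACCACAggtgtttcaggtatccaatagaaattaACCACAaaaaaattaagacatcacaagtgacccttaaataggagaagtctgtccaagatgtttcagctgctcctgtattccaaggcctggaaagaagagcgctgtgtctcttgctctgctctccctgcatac
Defa11: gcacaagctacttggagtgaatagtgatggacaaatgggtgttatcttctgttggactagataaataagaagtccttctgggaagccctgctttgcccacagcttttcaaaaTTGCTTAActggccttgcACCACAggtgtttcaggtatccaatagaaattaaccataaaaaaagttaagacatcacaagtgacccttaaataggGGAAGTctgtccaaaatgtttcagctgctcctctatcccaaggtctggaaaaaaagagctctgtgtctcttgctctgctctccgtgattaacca
Of aligned bases, 93.2% were identical between Np4 and RatNP-3b (261 of 280), 92.4% between Np4 and Defa11 (254 of 275) and 92.8% between RatNP-3b and Defa11 (272 of 293). TTGCTTAA stood in all 3 promoters, and 10.6% of the 33469 promoters in the table held a match to TTGCNNAA. ACCACA occurred at 2 places in Np4 and in RatNP-3b and at 1 in Defa11, against 17.3% of all promoters with at least 1 match. GGAAGT was matched in Np4 and Defa11 and not in RatNP-3b (22.6% of all promoters), and TATAAA in none of the 3 (14.2%). None of the motifs overlapped another in these windows, and a match is a run of letters, not a shown binding site.

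Values were in TPM, transcript abundances corrected for gene length and scaled to one total per library. The 10 most abundant RNAs took 98.1% to 99.2% of the TPM of each library, so the other RNAs shared few reads. Totals were 10020804 to 31357153 reads per library over all genes, but outside these 10 RNAs 64776 to 138860 reads in exercised and 76357 to 139868 in sedentary libraries. Read numbers were recovered from the TPM, and summed levels are given as RPM, reads for each 1000000 that did not belong to those 10 RNAs. Intervals on reads are exact 95% binomial limits and cover counting error only. They take reads as independent, and PCR copies could not be removed here, so they can be too narrow.

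The 10 genes had 1158 reads in all, at most 0.00278% of the reads of a library and at most 0.713% of those outside the 10 most abundant RNAs. Of these reads, 1111 (95.9%) were Np4 and RatNP-3b, and 1013 (87.5%) were in exercised c and exercised d. A total of 9 genes had at least 1 read and 2 (Np4 and RatNP-3b) a mean of at least 1 TPM over the 8 libraries. The other 8 had fewer than 20 reads each over all libraries, Elane with none, and 74.0% of the 17901 genes above 0 also had fewer than 20 reads.

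**Figure D1:**
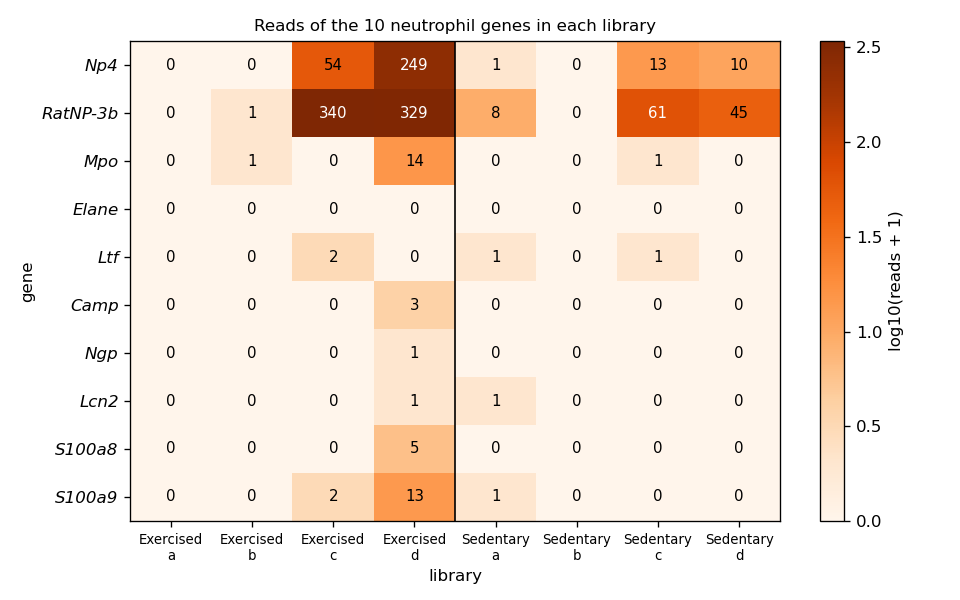
Reads of each of the 10 neutrophil genes (rows) in each library (columns, exercised a to d left of the line and sedentary a to d right of it), with the number of reads printed and the colour on a log10(reads + 1) scale. Exercised c and d hold 340 and 329 reads of RatNP-3b, exercised a and sedentary b hold no read of any of the 10 genes, and Elane is at 0 throughout.

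RatNP-3b was at 0, 0.137, 49.6 and 47.9 TPM in exercised a, b, c and d, against 0.797, 0, 5.51 and 5.02 TPM in sedentary a, b, c and d. These values rested on 0, 1, 340 and 329 reads in exercised and 8, 0, 61 and 45 reads in sedentary libraries. The level was high in exercised c and d, about alike in those 2, and intermediate in sedentary c and d. Exercised a and b were below sedentary a, c and d, so the groups overlapped.

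Np4 was at 0, 0, 6.95 and 31.9 TPM in exercised a to d, and at 0.0878, 0, 1.04 and 0.984 TPM in sedentary a to d. It had 0, 0, 54 and 249 reads in exercised libraries, against 1, 0, 13 and 10 in sedentary ones. Exercised d stood highest, exercised c next, and the 2 other exercised libraries were at 0, as was sedentary b. The groups overlapped for Np4 too.

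**Figure D2:**
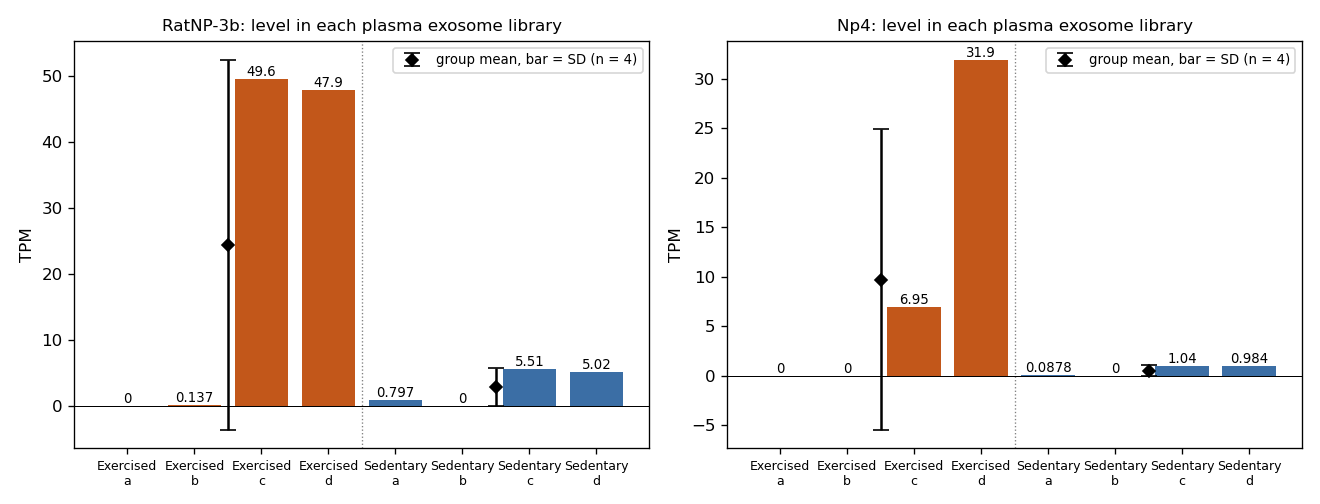
TPM of RatNP-3b (left) and Np4 (right) in each library, exercised a to d left and sedentary a to d right of the dotted line; bars are single libraries, and diamonds with whiskers are group means with SD (n = 4 each). RatNP-3b reaches 49.6 and 47.9 TPM in exercised c and d and at most 5.51 TPM elsewhere, and the SD of each exercised group is larger than its mean.

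In order of level, the libraries ran exercised c and d, sedentary c and d, sedentary a, exercised b, and exercised a and sedentary b at 0 for RatNP-3b. On the RPM scale the counting intervals of neighbours overlapped between exercised c (3295, 2954 to 3664) and exercised d (3816, 3416 to 4251). They did not overlap between exercised c and sedentary c (625, 478 to 803), nor between sedentary c and sedentary d (322, 235 to 430), nor between sedentary d and sedentary a (77.2, 33.3 to 152). Exercised b, with 1 read (0.182 to 40.1), overlapped sedentary a, and the zeros of exercised a and sedentary b each allow the level of 3 reads, 46.3 and 39.3 RPM. Exercised a had the fewest reads of the 8 libraries, and its limit is below the RatNP-3b level of 5 libraries.

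The 2 defensins were not carried in one ratio. Np4 made up 13.7% of the reads of Np4 and RatNP-3b together in exercised c (54 of 394 reads, 10.5% to 17.5%) and 43.1% in exercised d (249 of 578, 39.0% to 47.2%). In sedentary a, c and d the share was 11.1% (0.281% to 48.2%), 17.6% (9.70% to 28.2%) and 18.2% (9.08% to 30.9%), and 17.4% (11.5% to 24.8%) with the 3 pooled. Exercised c was thus within the intervals of the sedentary libraries, while the interval of exercised d lay above those of exercised c, sedentary c and sedentary d and overlapped that of sedentary a. Per base of gene length Np4 stood at 0.667 of RatNP-3b in exercised d, 0.140 in exercised c and 0.185 in sedentary a, c and d pooled. These limits compare libraries, not the exercised with the sedentary condition.

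**Figure D3:**
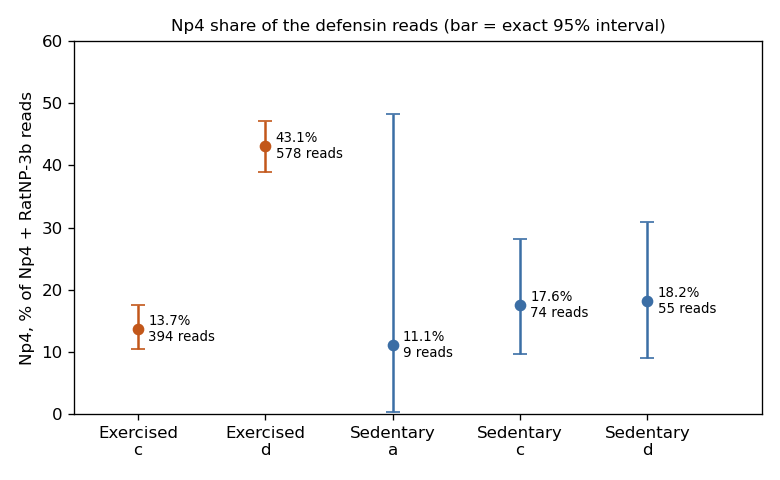
Share of Np4 among the reads of Np4 and RatNP-3b (percent) in the 5 libraries with more than 1 such read, exercised left and sedentary right, with exact 95% binomial limits as bars and the number of reads beside each point. Exercised d is at 43.1%, the other 4 libraries between 11.1% and 18.2%.

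Other genes of the chromosome 16 cluster were nearly without reads. Of the 11 cluster genes in the table, 5 had reads. Besides Np4 and RatNP-3b, Defa5 had 4 reads each in exercised c and d and none in sedentary libraries, Defal1 had 1 read in exercised c, and Defa5-ps2, a pseudogene, had 1 in sedentary a. The remaining 6 (Defa24, Defa6, Defa7, Defa8, Defa9 and Defa11) were at 0 in all libraries. How reads were shared between near-identical defensin genes is not stated, so the division among the members of the cluster is uncertain. Beta-defensins, made mainly by epithelia, had 13 reads over 3 of 41 genes.

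**Figure D4:**
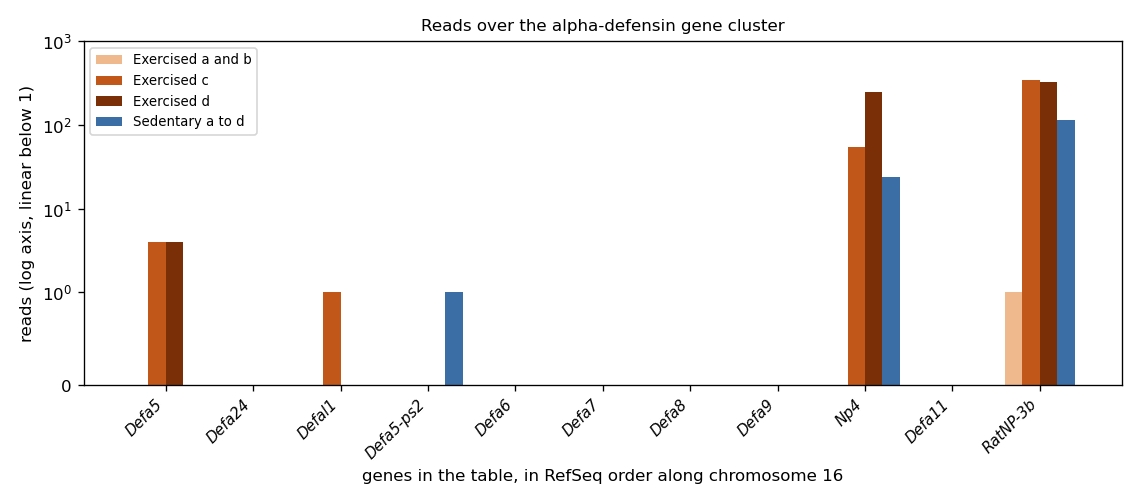
Reads of the 11 alpha-defensin cluster genes in the table, in RefSeq order along chromosome 16, for exercised a and b summed, exercised c, exercised d, and sedentary a to d summed; the axis is logarithmic above 1 read. Np4 and RatNP-3b carry nearly all reads, and Defa11 between them has none.

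Among the azurophil granule proteins, Mpo encodes myeloperoxidase, which makes hypochlorous acid. It had 0, 1, 0 and 14 reads in exercised a to d (0, 0.0282, 0 and 0.422 TPM) and 0, 0, 1 and 0 reads in sedentary a to d (0.0187 TPM in sedentary c). Its level was therefore set by exercised d; exercised c, which matched exercised d in RatNP-3b, had no Mpo read. Elane, neutrophil elastase, had no read in any library. Of the 5 azurophil granule genes measured, 3 had reads, Prtn3 (proteinase 3) with 3 reads in exercised d and 1, 2 and 3 in sedentary a, b and c, and Ctsg (cathepsin G) with 1 in exercised c.

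The specific granule proteins were scarcely detected. Camp, the cathelicidin, had 3 reads and Ngp, a neutrophil granule protein described in mouse, 1 read, all in exercised d. Ltf, the iron-binding lactoferrin, had 2 reads in exercised c and 1 each in sedentary a and sedentary c. Lcn2, which binds bacterial siderophores, had 1 read in exercised d and 1 in sedentary a. Of 9 specific granule genes measured, 8 had reads. The highest was Hp (haptoglobin, made mainly in liver), with 23 reads in exercised b, 3 in exercised d and 0 in exercised a and c, against 55, 1, 41 and 89 reads in sedentary a to d; it did not follow the defensins.

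S100a8 and S100a9 encode the calcium-binding pair calprotectin, abundant in neutrophil cytosol. S100a9 had 0, 0, 2 and 13 reads in exercised a to d (0, 0, 0.218 and 1.41 TPM), against 1, 0, 0 and 0 in sedentary a to d (0.0744 TPM in sedentary a). S100a8 had 5 reads, all in exercised d (1.03 TPM). In exercised c, where RatNP-3b was at 49.6 TPM, S100a9 was at 0.218 and S100a8 at 0 TPM. In exercised d, RatNP-3b at 47.9 TPM stood beside S100a9 at 1.41 TPM, both on the length-corrected scale.

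Over the 8 genes other than the defensins, 37 of 47 reads (78.7%) were in exercised d. They made up 6.02% (4.27% to 8.20%) of the reads of the 10 genes in exercised d, 1.01% (0.274% to 2.55%) in exercised c and 3.50% (1.14% to 7.97%) in the sedentary libraries pooled. Exercised d carried 8 of the 10 genes, exercised c 4, exercised b 2 and exercised a none. Sedentary a carried 5, sedentary c 4, sedentary d 2 and sedentary b none.

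The comparison of exercised with sedentary rats asks which RNAs of plasma exosomes differ after a month of running. RatNP-3b averaged 24.4 ± 28.1 TPM in exercised and 2.83 ± 2.84 TPM in sedentary libraries (SD, n = 4 each), a ratio of 8.62, which was 5.65 without exercised c. Np4 averaged 9.72 ± 15.2 TPM in exercised and 0.527 ± 0.559 TPM in sedentary libraries (SD, n = 4 each), a ratio of 18.5, which was 4.40 without exercised d. On the log2(TPM + 1) scale the difference, exercised minus sedentary, was 1.33 (SE 1.43) for RatNP-3b and 1.47 (SE 1.06) for Np4, beside a median of 0.40 over the 508 genes whose mean reached 1 TPM. With TPM rescaled without the 10 most abundant RNAs that median was -0.01, and the differences were 0.97 for RatNP-3b and 1.26 for Np4. Single libraries moved them: RatNP-3b was at 0.40 without exercised c, 0.41 without exercised d, 2.28 without exercised a, 2.22 without exercised b and 0.82 without sedentary b, and Np4 at 0.46 without exercised d. With voom on the recovered reads the difference was 0.61 (SE 2.35) for RatNP-3b and 1.22 (SE 2.14) for Np4. Both genes were picked in the study as higher in exercised rats on these libraries, so the values are a description and no test is given for them. Without exercised c and d, a choice made after seeing the data, the difference of the means, exercised minus sedentary, was -2.77 TPM for RatNP-3b and -0.527 TPM for Np4.

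Across all genes, limma with Benjamini-Hochberg adjustment called 0 of 508 genes at an adjusted p under 0.05 (0% called), and 54 had an unadjusted p under 0.05 (10.6%). Voom on the recovered reads likewise called 0, with 40 before adjustment, and the exact permutation test, whose smallest possible p is 0.029, 0 of 17901 genes, with 318 before adjustment. Groups that did not overlap were found for 5.91% of the 508 genes and 1.78% of the 17901 genes above 0, and for 0 of the 10 neutrophil genes. The other genes with reads (Mpo, Ltf, Camp, Ngp, Lcn2, S100a8 and S100a9) were carried by 1 to 3 of the 8 libraries, too few for the exact two-sided permutation test of mean TPM to pass. With their values the smallest p it can give is 0.14 for Mpo, Ltf and S100a9, 0.43 for Lcn2 and 1 for Camp, Ngp and S100a8, which had reads in exercised d only. The exact test gave p = 0.43 for S100a9 and for Mpo and p = 1 for the other 5, with an adjusted p of 1 over the 17901 genes, and says nothing of whether they differ. S100a9 averaged 0.408 ± 0.678 TPM in exercised and 0.0186 ± 0.0372 TPM in sedentary libraries, and Mpo 0.112 ± 0.207 and 0.00467 ± 0.00935 TPM (SD, n = 4 each).

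Summed, the 10 genes were at 0, 14.4, 3857 and 7134 RPM in exercised a to d, against 116, 0, 778 and 393 RPM in sedentary a to d. The means were 2751 ± 3439 RPM in exercised and 322 ± 346 RPM in sedentary libraries (SD, n = 4 each), a ratio of 8.55. Exercised d alone made up 64.8% of the exercised sum. The ratio was 4.01 without exercised d, 16.2 without sedentary c, and 0.0224 without exercised c and d, so that it turned round when those 2 libraries were left out. It was 14.7 without RatNP-3b and 9.61 over the 8 genes other than the defensins, which rested on exercised d: without the defensins and that library it was 1.24. In RPM those 8 genes summed to 0, 7.2, 38.8 and 429 in exercised a to d, against 28.9, 0, 20.5 and 0 in sedentary a to d.

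Exercised c and d, named for the defensin reads they hold, together had 89.5% of the TPM of RatNP-3b and 94.9% of that of Np4, which describes how these genes and libraries were chosen and supports nothing further. The genes most like RatNP-3b over the 8 libraries (Pearson r of log2(TPM + 1), description only) were LOC120101155 (r = 0.965), Mir3555 (0.935), Np4 (0.928), LOC120095396 (0.926) and Mir25 (0.906), where the median gene had r = 0.053. LOC120101155 had 0, 0, 13 and 11 reads in exercised a to d and 1, 0, 2 and 1 in sedentary a to d. Mir3555 had 0, 0, 8 and 10 reads in exercised a to d and 2, 0, 1 and 5 in sedentary a to d, and LOC120095396 6, 7, 43 and 62, and 13, 9, 20 and 33. Most like S100a9 were LOC120093427 (r = 0.974), Np4 (0.913), LOC120096073 (0.890), LOC120101161 (0.889) and ENSRNOG00000067866 (0.881), and LOC120093427 had all its 51 reads in exercised d. Like Np4 and RatNP-3b, LOC120101155 and LOC120093427 were picked in the study as higher in exercised rats on these libraries, so their likeness partly describes that choice. These points share their scaling and the few RNAs that fill each library, and most of the genes rest on few reads.

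Genes of other cells were read in the same libraries. RNA from fewer cells of a type and less RNA per cell cannot be told apart in such bulk samples. Neutrophil surface and signalling genes, which mark the mature cell, showed 8 of 11 genes with reads and summed to 28.8 to 92.8 RPM in exercised, against 10.2 to 105 RPM in sedentary libraries. In that list Cxcr1, Fpr1 and Fpr2 were at 0 throughout and Csf3r, the receptor of granulocyte colony-stimulating factor, had 1 read in sedentary a, so these receptors of blood neutrophils were at or near 0. In exercised c and d, where the alpha-defensins reached 3866 and 6751 RPM, this list was at 29.1 and 92.8 RPM.

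Eosinophil and mast cell genes (4 of 5 with reads) were, as a sum, highest in the same 2 libraries as the defensins. They summed to 0, 14.4, 174 and 858 RPM in exercised a to d and to 96.5, 26.2, 102 and 14.3 RPM in sedentary a to d. Prg2, the eosinophil granule major basic protein, led with 0, 0, 8 and 61 reads in exercised a to d, against 3, 0, 8 and 0 in sedentary a to d. Prg3 had 0, 0, 8 and 5 reads in exercised a to d, against 2, 0, 1 and 0 in sedentary a to d. Epx had 0, 2, 2 and 5 reads in exercised a to d, against 5, 2, 1 and 1 in sedentary a to d. On these 18 reads its TPM was highest in exercised d (0.136) and next in sedentary a (0.0933), while exercised c (0.0547) was below sedentary b (0.0573). In the list of granulocyte precursors 6 of 7 genes had reads. It summed to 2331, 3594, 2326 and 1450 RPM in exercised a to d, against 2856, 4283, 4917 and 2045 RPM in sedentary a to d. Most of this sum was the transcription factor Gfi1, the most abundant gene of the list. It held 186 of the 240 reads of the list in exercised c and 97 of 125 in exercised d. Both the sum and Gfi1 were lowest in exercised d, so the sum does not describe the other genes of the list. Gfi1 was read in all libraries and did not follow the defensins. It was at 8.89, 13.4, 5.36 and 2.79 TPM in exercised a to d, against 5.60, 9.83, 8.17 and 6.12 TPM in sedentary a to d. Mki67 and Top2a, genes of dividing cells named here after their values were seen, had 14 and 18 reads in exercised c and 14 and 10 in exercised d, against 11 and 8 in sedentary c and at most 6 in any other library. Cebpe, named in the same way, had 0, 0, 3 and 4 reads in exercised a to d, against 0, 0, 0 and 1 in sedentary a to d. Stfa2 had all its 17 reads in exercised c, whereas Fcnb had most in sedentary d (5 reads) and 0 in exercised d.

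Other lists ran differently. Liver genes (8 of 8 with reads) were lowest in exercised c and d, at 2007, 5495, 300.4 and 151 RPM in exercised a to d, against 9148, 3038, 13387 and 14299 RPM in sedentary a to d. Platelet genes (7 of 8) summed to 812 to 1618 RPM in exercised and 135 to 486 RPM in sedentary libraries. The leading gene of that list, Pf4, was picked in the study as higher in exercised rats on these libraries. The platelet sums are therefore a description with no test. Tubb1 was highest in exercised b (86 reads) and Clec1b in exercised c (87 reads). Erythroid genes (6 of 6) summed to 7770 to 35970 RPM and 2459 to 17680 RPM. Lymphocyte genes (7 of 8) summed to 0 to 23.2 RPM in exercised and 9.65 to 275 RPM in sedentary libraries, and monocyte genes (7 of 8) to 15.4 to 46.4 and 10.2 to 196 RPM. The part of any of these cells, of depth or of single libraries in the defensin values was not tested.

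**Figure D5:**
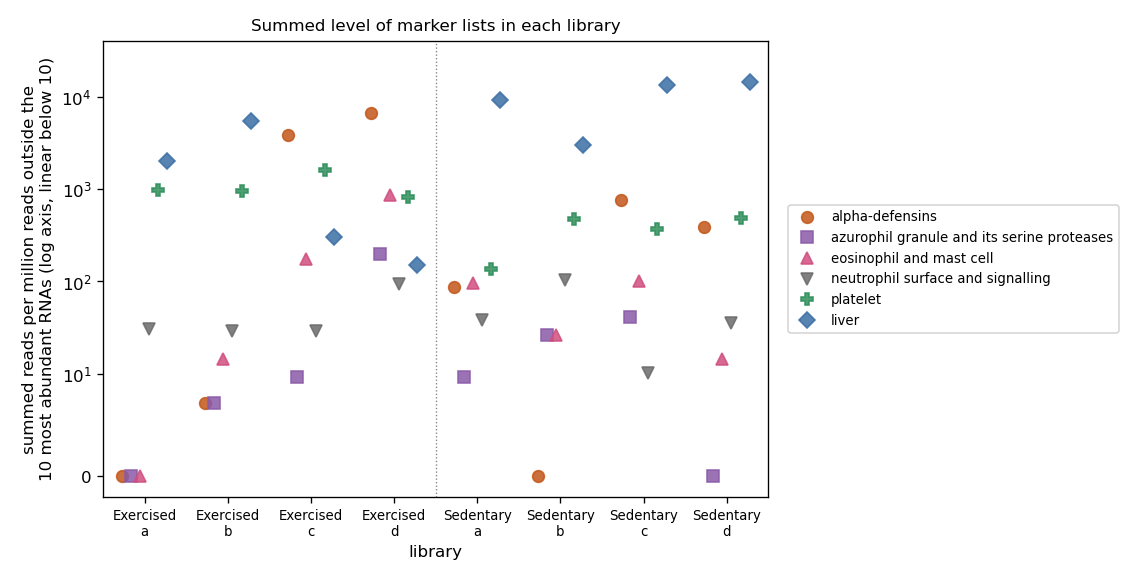
Summed RPM of 6 marker lists in each library, exercised a to d left and sedentary a to d right of the dotted line; the axis is logarithmic above 10 RPM. The alpha-defensins reach 3866 and 6751 RPM in exercised c and d, where the liver list is at 300.4 and 151 RPM and the neutrophil surface list at 29.1 and 92.8 RPM.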

How the data were processed

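RNA of plasma exosomes was made into libraries with a stranded total RNA kit for very small inputs and depleted of ribosomal cDNA. The authors deposited 1 table of TPM (abundances corrected for gene length, one total per library) for 29541 genes in 8 libraries. The submitters' processing notes name the rat build mRatBN 7.2; aligner, counter and use of strand: not given in the sources used here. Groups were taken from the labels.

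A TPM value is reads over gene length times a constant of the library, so reads were recovered from the steps between values; 71860 of 71860 values above 0 came out whole (tolerance 1e-06). Where a gene's length and all its reads share a factor, true reads are a multiple of those given. Over genes whose mean reached 1 TPM, limma 3.58.1 (R 4.3.3, trend) was fitted to log2(TPM + 1), two-sided, with Benjamini-Hochberg adjustment. The mean TPM of all 17901 genes above 0 was also tested by exact permutation over 70 assignments (Python 3.11.15, scipy 1.17.1). Promoters were aligned with Biopython 1.88. The fit was tested on simulated data. Alternatives were another pseudocount, filter, scaling, voom, a block by letter, and fewer libraries.

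The 10 genes and all lists were chosen with earlier results of these data known. Named were the 10 genes, the count with reads and up to 3 leading genes of each list, and up to 5 genes most like RatNP-3b and S100a9. Outside this rule, the genes of the alpha-defensin cluster were named. So were Cxcr1, Fpr1, Fpr2, Csf3r, Cebpe, Mki67 and Top2a, picked with their values known. Near copies by protein identity were not analysed here. Motifs were chosen after the promoters were read. The list of skin and gut epithelium had 2 of 5 genes with reads (15.4 to 139 RPM in exercised, 157 to 420.0 RPM in sedentary libraries), that of gelatinase granules 4 of 4 (15.4 to 115 and 52.4 to 143 RPM).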

Additional observations from a re-analysis of the deposited data

Results flagged for a closer look

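In 10 of the 15 groups of 4 libraries in which one of the 8 lesser genes or a defensin had any read, a single library stood apart from the other 3; chance alone does so in about 1 group in 20, but a group with 3 libraries at 0 always does. Exercised d was that library in 6 of the 10: for Mpo (0.422 TPM), Camp (0.376 TPM), Ngp (0.0668 TPM), Lcn2 (0.0648 TPM), S100a8 (1.03 TPM) and S100a9 (1.41 TPM). Exercised c stood apart for Ltf (0.0533 TPM). Among sedentary libraries, sedentary c stood apart for Mpo (0.0187 TPM), and sedentary a for Lcn2 (0.0443 TPM) and S100a9 (0.0744 TPM), each on 1 read. No group of Np4 or RatNP-3b was among them. Of the flagged groups, only exercised Mpo and exercised S100a9 had reads in more than 1 library. The flags of the others were fixed in advance, so the number flagged cannot be judged against chance.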

How the results depend on the processing

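The limma count of 0 called genes held under all alternatives but 1: without single libraries it ran from 0 to 1, and without sedentary a the 1 gene called was Snora81_1 (log2 difference 5.08, adjusted p = 0.042; it is named because of that call). The count at an unadjusted p under 0.05 was 54, against 408 with no filter, 155 with a mean of at least 0.1 TPM, 35 without sedentary a and 107 without exercised c and d. It split into 43 higher and 11 lower in exercised libraries, against 16 and 23 with TPM rescaled without the 10 most abundant RNAs, 25 and 14 with median-ratio scaling and 21 and 19 with voom; the rescaling moved the median difference of all genes to -0.01. What the letters a to d mark is not stated, so whether they pair the libraries is not known. Over the genes of the fit, same-letter deviations correlated at -0.18, -0.0049, -0.26 and -0.17, but RatNP-3b and Np4 were higher in c and d within each group. The block by letter gave 0 called genes and, before adjustment, 34 higher and 6 lower. With it the log2 difference was 1.33 (SE 0.78) for RatNP-3b and 1.47 (SE 0.78) for Np4, against SE 1.43 and 1.06 without it.

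Leaving out exercised c and d, chosen after seeing the data, turned the log2 difference of RatNP-3b to -1.44, with Np4 then below the filter, the TPM differences of Np4 to -0.527, RatNP-3b to -2.77, S100a9 to -0.0186, Ltf to -0.00867 and Lcn2 to -0.0111, and the summed ratio to 0.0224. Without single libraries the difference ran from -0.00867 (without exercised c) to 0.0091 TPM for Ltf, from -0.0111 (without exercised d) to 0.0162 TPM for Lcn2, and the summed ratio from 4.01 to 16.2; rescaled TPM gave -0.00439 for Ltf. Camp, Ngp and S100a8, read in exercised d only, had a difference of 0 without it. The summed ratio without the defensins and exercised d, also chosen after seeing the data, was 1.24. The causes were not tested.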

Other observations

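Some relatives of these genes in function did not follow the defensins from library to library. S100a6, a calcium-binding protein of the same family as S100a8 and S100a9, had 4, 47, 0 and 0 reads in exercised a to d, against 3, 0, 1 and 6 in sedentary a to d, so it was at 0 in the 2 libraries with most defensin reads. Stfa2, a stefin, had 17 reads, all in exercised c. Fcnb, ficolin B, had 1, 2, 2 and 0 reads in exercised a to d, against 3, 0, 3 and 5 in sedentary a to d. Among gelatinase granule genes, Arg1 (arginase, abundant in liver) had 12 reads in exercised b and none in the other exercised libraries, against 12, 2, 7 and 6 in sedentary a to d.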
